A study of Homo sapiens with 8 samples.

Results

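The DAXX peaks of DAXX knockdown (K/D) PC3 cells that lay outside promoters and had no counterpart in control cells were examined. They were chosen by comparing the DAXX peak lists of both lines. A peak of the K/D list was taken when its centre lay outside the window from 1000 bp upstream to 100 bp downstream of every protein-coding transcription start site (TSS), and when it shared no base with any DAXX peak of the control (WT) list. Of the 42876 K/D DAXX peaks on chromosomes 1 to 22, X and Y, 12788 met this rule and are called K/D-only distal peaks here. The other distal K/D peaks numbered 27032 and met a WT peak (kept distal peaks), and 28512 distal WT peaks met no K/D peak (lost distal peaks).

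The study used ChIP-Seq, the sequencing of DNA that an antibody brings down with its protein, on PC3, a human prostate cancer cell line from a bone metastasis. K/D cells were PC3 cells carrying a stable shRNA against DAXX, delivered by lentivirus and kept under puromycin, whereas the control is labelled wild type and described in the series text as a line with a control shRNA, so WT stands here for either. In each line DAXX, DNMT1 and a histone H3 lysine 4 mark, written H3(Lys4) here, were precipitated after cross-linking of proteins to each other and then to DNA. Each of these 6 groups has 1 library and 1 peak list, and 1 input library per line served as control for its lists, so differences between lines have no replicate check and no test was made. The K/D line is 1 stable population in which some DAXX may remain, so a K/D DAXX peak is read here only as a site where the DAXX antibody enriched DNA. The histone label, DMHH3(Lys4), does not spell out how many methyl groups the antibody reads. All positions are hg19 (GRCh37), plus strand. Total tags were 15208845 for WT DAXX and 18210051 for K/D DAXX, of which 15.8% and 6.83% fell in peaks, and 16248943 and 18705056 for WT and K/D H3(Lys4), with 23.9% and 15.1% in regions.

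DAXX is a histone chaperone that, with ATRX, deposits the variant H3.3, and it is also a co-repressor that sequence-specific transcription factors bring to DNA. DAXX is not known to read DNA letters itself and reaches its sites through partner proteins. Distal elements such as enhancers are short stretches bound by several factors, and their flanking nucleosomes carry methylated H3 lysine 4. AP-1, a dimer of FOS and JUN proteins, is a main enhancer factor of invasive carcinoma cells. Nuclear receptors bind the hexamer AGGTCA singly or in pairs, and CTCF is the zinc finger protein that bounds chromatin loops.

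The sequences of 11 members show the letters that recur in the results. They were among the first in the deposited order that held the motif inside the peak itself, outside exons, and capitals mark the motif on either strand. Motifs were AP-1 (TGACTCA or TGAGTCA), the nuclear receptor half-site (TGACCTC or TGACCTT, the complement of AGGTCA with 1 more base) and the core of the CTCF site. The first peaks with a half-site lay 322 kb from the TSS of TLE4, a Groucho-type co-repressor (chr9:82510268-82510438), in an intron of NFIA, a nuclear factor I transcription factor (chr1:61557352-61557522), and 112 kb from MBL2, which encodes mannose-binding lectin (chr10:54644055-54644225). The NFIA peak held 3 half-sites in 171 bp.
TLE4 peak: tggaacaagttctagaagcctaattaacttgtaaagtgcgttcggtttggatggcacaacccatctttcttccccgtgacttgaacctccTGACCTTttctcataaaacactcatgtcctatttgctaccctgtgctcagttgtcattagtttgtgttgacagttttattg
NFIA peak: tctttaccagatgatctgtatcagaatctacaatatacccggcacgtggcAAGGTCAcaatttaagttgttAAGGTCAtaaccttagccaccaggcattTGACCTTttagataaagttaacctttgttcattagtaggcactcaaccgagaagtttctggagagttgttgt
MBL2 peak: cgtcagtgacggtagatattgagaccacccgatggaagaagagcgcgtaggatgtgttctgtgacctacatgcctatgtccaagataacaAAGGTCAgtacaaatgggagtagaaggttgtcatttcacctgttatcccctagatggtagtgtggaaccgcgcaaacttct

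The first peaks with AP-1 letters lay 179 kb from ITGB1, the integrin beta 1 gene (chr10:33425867-33426037), and 312 kb from ZMIZ1, a transcriptional co-activator gene (chr10:80516666-80516836).
ITGB1 peak: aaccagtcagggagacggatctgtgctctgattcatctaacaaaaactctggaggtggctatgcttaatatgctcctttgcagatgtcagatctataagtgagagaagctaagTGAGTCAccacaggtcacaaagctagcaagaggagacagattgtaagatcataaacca
ZMIZ1 peak: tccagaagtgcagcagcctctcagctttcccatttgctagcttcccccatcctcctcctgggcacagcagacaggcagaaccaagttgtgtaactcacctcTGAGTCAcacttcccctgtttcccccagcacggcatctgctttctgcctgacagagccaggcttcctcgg

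CTCF letters were first inside the peak in an intron of LRRC20 (chr10:72124299-72124469) and 8.38 kb from ZFP36L1, which encodes an mRNA decay protein (chr14:69251319-69251489).
LRRC20 peak: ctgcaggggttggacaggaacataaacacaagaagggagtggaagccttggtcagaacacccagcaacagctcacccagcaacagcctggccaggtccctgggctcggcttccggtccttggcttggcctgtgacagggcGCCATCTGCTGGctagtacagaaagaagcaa
ZFP36L1 peak: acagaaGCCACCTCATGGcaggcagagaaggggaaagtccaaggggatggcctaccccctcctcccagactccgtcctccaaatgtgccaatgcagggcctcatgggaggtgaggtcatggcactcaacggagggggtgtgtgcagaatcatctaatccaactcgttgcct

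Peaks with ATAAATC or CCATAAA or CCAATAA or CTCGTAAA are shown because ATAAATC had the highest ratio of members to kept distal peaks among the 7-letter words found in at least 1% of members. Their first peaks lay in an intron of DACH1, a developmental transcription cofactor gene (chr13:72217645-72217815), and 162 kb from ZNF281, a zinc finger factor gene (chr1:200216814-200216984).
DACH1 peak: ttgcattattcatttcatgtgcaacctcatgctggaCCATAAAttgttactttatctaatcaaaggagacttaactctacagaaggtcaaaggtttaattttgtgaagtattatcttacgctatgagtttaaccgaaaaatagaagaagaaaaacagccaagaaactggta
ZNF281 peak: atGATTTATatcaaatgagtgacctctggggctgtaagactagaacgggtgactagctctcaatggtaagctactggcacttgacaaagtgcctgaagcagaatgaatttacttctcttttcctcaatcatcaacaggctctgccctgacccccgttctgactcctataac

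The last 2 lay in long stretches without any WT DAXX peak. They were 979 kb from FAM98A (chr2:34803804-34803974) and 114 kb from ETNK1, an ethanolamine kinase gene (chr12:22891971-22892141). In the FAM98A peak AP-1 letters are in capitals, and in the ETNK1 peak a half-site. In the peaks above, only the motif that a peak is shown for is in capitals. The DACH1, ZNF281 and ZFP36L1 peaks also hold a half-site in lower case.
FAM98A peak: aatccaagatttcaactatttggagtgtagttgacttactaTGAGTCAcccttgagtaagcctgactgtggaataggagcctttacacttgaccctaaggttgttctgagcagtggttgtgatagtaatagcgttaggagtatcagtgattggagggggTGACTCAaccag
ETNK1 peak: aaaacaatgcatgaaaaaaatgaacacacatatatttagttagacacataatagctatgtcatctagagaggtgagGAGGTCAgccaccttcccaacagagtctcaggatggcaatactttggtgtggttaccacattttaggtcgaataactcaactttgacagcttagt

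The values that chose the members are given first, as a description. In the whole K/D list 13975 of 42876 peaks (32.6%) shared no base with a WT peak, and 1187 of these were promoter peaks. The deposited score is 1 value for all peaks and gives no strength. The order of the list is used in its place, and whether it follows strength was not checked. The numbers in the peak names track the order of the K/D list on each chromosome (median Spearman correlation 0.991). Members came late in it. Their median place was 74.1% of the way down the list, against 37.4% for kept distal peaks, and 20.4% of members (interval 19.7 to 21.1) stood in the first 50% of the list. The first member held place 326. Intervals here and below are exact 95% binomial intervals and cover counting error only.

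The nearest WT DAXX peak was a median 11 kb from a member (quartiles 2.67 and 36.5 kb). At the edge of the rule, 32 members lay 10 bp or less from a WT peak and 4 were 1 bp away, while 48 kept distal peaks shared 10 bp or less with theirs. The kept peaks shared a median 152 bp. Members with a WT peak within 200 bp made up 4.30% and those with none within 100 kb 11.7% (1500 peaks). The first member, in an intron of NRP1, the gene of the co-receptor neuropilin 1 (chr10:33541972-33542142), was 58 bp from a WT peak. On the promoter side of the rule, 323 members (2.53%) were centred 101 to 1000 bp downstream of a TSS, and one of them lay 109 bp downstream of the TSS of IL6, the interleukin 6 gene.

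The H3(Lys4) lists played no part in the choice of members. A K/D H3(Lys4) region touched 3625 of 12788 members, 28.3% (interval 27.6 to 29.1), close to the 28.7% of all K/D DAXX peaks. A WT region touched 2498 members, 19.5% (interval 18.8 to 20.2), below the 30.7% of all K/D DAXX peaks. The members therefore differed from all K/D DAXX peaks mainly in how few lay where control cells had the mark. Among kept distal peaks the shares were 28.2% on K/D and 34.6% on WT regions, and among lost distal peaks 20.7% and 38.3%. The trait is not particular to members, since lost peaks had the lowest share on regions of the line that lacked them.

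Taken state by state, 2426 members (19.0%) touched a K/D but no WT region and 1299 (10.2%) a WT but no K/D region, a ratio of 1.87. The same ratio was 0.711 for kept and 0.358 for lost distal peaks. Both states are read at the peak, and such regions are called K/D-only and WT-only below. Outside the peak they may still meet a region of the other line. Regions of both lines touched 1199 members (9.38%, interval 8.88 to 9.89), and 7864 members (61.5%, interval 60.6 to 62.3) touched none. Off H3(Lys4) was thus the most frequent state in all 3 sets, at 49.4% of kept and 51.9% of lost distal peaks. Within 1000 bp of a member there was a K/D region for 44% and a WT region for 34.5%.

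**Figure D1:**
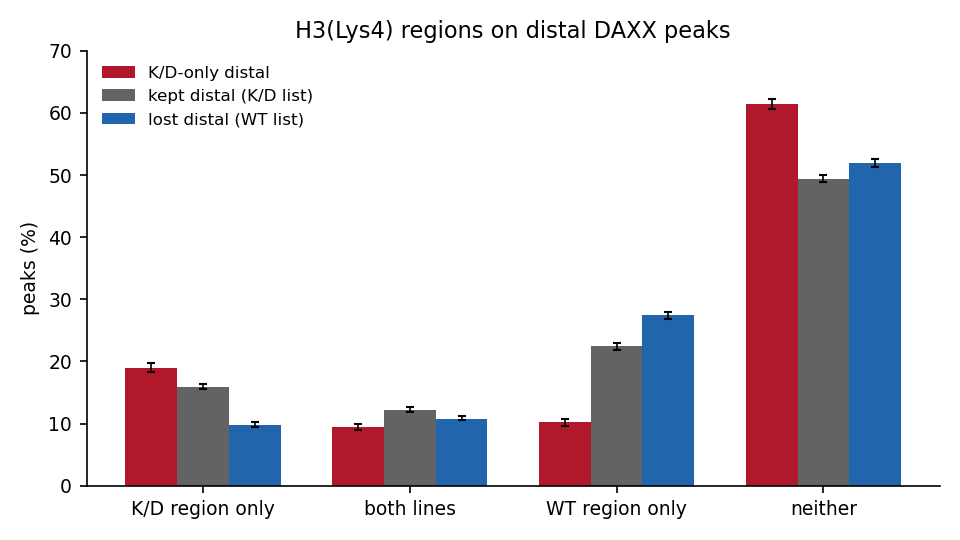
Percentage of distal DAXX peaks (y axis) by the H3(Lys4) regions that their own bases meet (x axis). The states are a K/D but no WT region, both, a WT but no K/D region, and neither. Sets are 12788 K/D-only, 27032 kept and 28512 lost distal peaks. Bars are shares and whiskers exact 95% binomial intervals. Of the 3 sets, K/D-only peaks have the highest share on K/D-only regions (19.0%) and the lowest on WT-only regions (10.2%).

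At equal places in the list the difference was as large. Here and below, kept peaks were placed in the K/D list and lost peaks in the longer WT list. For lost peaks an equal place therefore need not mean equal strength. When kept and lost peaks were weighted to the members' distribution over 10 equal parts of the list, WT regions touched 37.2% of kept and 38.7% of lost peaks against the members' 19.5%, and K/D regions touched 32.8% and 21.1% against 28.3%. Distance to WT DAXX moved with it. Within 200 bp of a WT DAXX peak 35.3% of members lay on K/D and 36.2% on WT regions. Of members 201 to 1000 bp from a WT DAXX peak, 38.6% lay on K/D and 37.1% on WT regions. At 5001 to 20000 bp the shares were 27.7% and 18.7%, and over 100 kb they were 18.5% (interval 16.5 to 20.5) and 3% (interval 2.20 to 3.99). Few of the members over 100 kb from any WT DAXX peak thus lay on WT H3(Lys4), while K/D regions still touched some of them. Distance to WT DAXX is the value that chose the members, so this split describes them and is no separate support.

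The 3564 K/D regions that touched members had a median width of 845 bp, and 54.6% of them met no WT region, against 51.8% of all K/D regions and 43.2% of those on kept distal peaks. Motif content varied with the mark. Half-sites were found in 25.8% of members off H3(Lys4) and in 18.0% of members on K/D-only regions, and AP-1 letters in 26.3% and 29.6%. The first members on a K/D-only region were the TLE4 peak, an intron peak of PCDH9, a protocadherin gene (chr13:67409537-67409707), and the FAM98A peak.

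DNMT1, the maintenance DNA methyltransferase, was almost absent from members. WT DNMT1 peaks touched 61 members (0.477%, interval 0.365 to 0.612) and K/D DNMT1 peaks 42 (0.328%, interval 0.237 to 0.444), with 9 members touched by both. Among all K/D DAXX peaks the shares were 1.58% and 0.473%, and among kept distal peaks 2.15% and 0.514%. Weighted to the members' places in the list, kept peaks had 1.53% and 0.253% and lost peaks 1.64% and 0.190%, so for K/D DNMT1 the kept peaks lay within the members' interval and the lost peaks below it. The WT to K/D ratio was smaller on members than on kept or lost peaks, in lists of 2234 WT and 595 K/D DNMT1 peaks. The first member with K/D DNMT1 lay in an intron of ADK, the adenosine kinase gene (chr10:75984012-75984182), and had WT DNMT1 as well. The next were in introns of LRMDA (chr10:77873813-77873983) and PARD3B, a cell polarity gene (chr2:205890011-205890181), each on a K/D-only H3(Lys4) region and without WT DNMT1.

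Sequence was not used by the rule either. The letters within 100 bp of each centre were searched in both directions, and the same search in windows centred 2 kb to either side gave the local background. AP-1 letters stood in 27.1% of members (interval 26.4 to 27.9), against 3.15% of their neighbouring windows, an 8.62-fold excess. They stood in 42.0% of kept and 34.1% of lost distal peaks, with 3.41% in the kept peaks' neighbouring windows. AP-1 was therefore the most enriched 7-letter word of the members and still less frequent there than in the other distal peaks. At equal places in the list the kept peaks would have 38.0% and the lost peaks 33.0%. The gap was widest at the top of the list, where 19 of 98 members in the first 10% of the list held AP-1 (19.4%, interval 12.1 to 28.6), against 49.0% of kept peaks there.

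The half-site behaved otherwise. It was found in 22.4% of members (interval 21.7 to 23.1), in 27.5% of kept and in 16.1% of lost distal peaks, with 9.34% in the members' neighbouring windows. In the first 10% of each list it stood in 38.8% of members (interval 29.1 to 49.2), 37.8% of kept and 9.32% of lost peaks (interval 6.50 to 12.8). In the last 10% the 3 shares were 22.7%, 22.5% and 18.9%. Weighted to the members' places the kept peaks had 24.1% and the lost peaks 16.6%. In the half-site the members thus lay closer to the kept than to the lost peaks. The word AAGGTCA was in 12.1% of members, 13.8% of kept and 7.08% of lost peaks, against 3.53% of the members' neighbouring windows. The other word, GAGGTCA, was in 11.2%, 14.6% and 9.49%. The longer TCAAGGTCA, the preferred site of estrogen-related and other monomeric orphan receptors, was searched after these values were seen, and it was in 108 members (0.845%), 0.899% of kept and 0.470% of lost peaks.

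**Figure D2:**
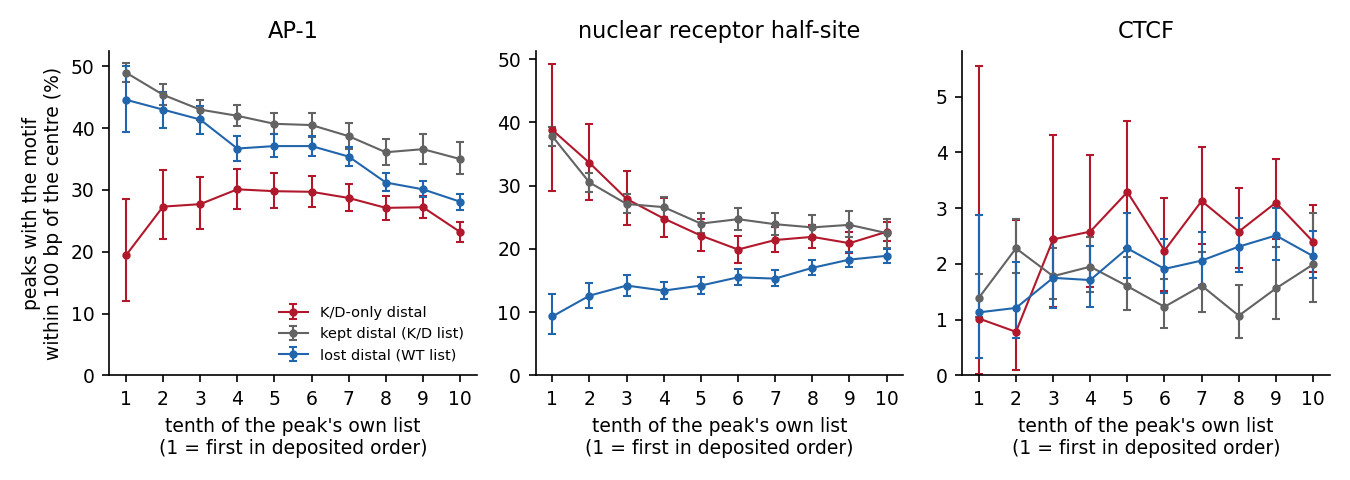
Percentage of distal DAXX peaks with AP-1, half-site or CTCF letters within 100 bp of the centre (y axis) in 10 equal parts of the peaks' own list in deposited order (x axis); points are shares and whiskers exact 95% binomial intervals. K/D-only peaks lie below the other sets for AP-1 (19.4% against 49.0% of kept peaks in the first 10%) and beside the kept peaks for the half-site (38.8% and 37.8%).

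CTCF letters were found in 343 members, 2.68% (interval 2.41 to 2.98), against 1.67% of kept and 2.09% of lost distal peaks and 0.543% of the members' neighbouring windows. Of these 343 matches, 35.0% lay within 25 bp of the peak centre. They were in 3.17% of members off the histone mark (interval 2.79 to 3.58), in 1.77% of members on K/D-only regions (interval 1.29 to 2.38) and in 1.42% of members on regions of both lines (interval 0.828 to 2.26). On WT-only regions the share was 2.62% (interval 1.82 to 3.64), which overlapped that of members off the mark. The first of them lay 36.0 kb from SOCS5, a suppressor of cytokine signalling gene (chr2:46890046-46890216), and the next were the LRRC20 and ZFP36L1 peaks shown above.

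Of the other factors searched, most were less frequent in members than in kept distal peaks. The RUNX letters (TGTGGTT or TGCGGTT) were in 8.16% and 10.7%, FOX (TGTTTAC or TGTTTGC) in 13.2% and 15.3%, and ETS (CAGGAAGT and 3 variants) in 6.82% and 8.23%. Their neighbouring windows held 3.93%, 6.4% and 2.79% around members. GATA letters (AGATAAG or AGATAAC) were in 5.83% of members (interval 5.43 to 6.25) and 4.51% of kept peaks (interval 4.27 to 4.76), with 5.11% in the members' neighbouring windows. SP1 letters (GGGGCGGGG or GGGGCGGAG) were in 1.21% and 0.895%. Neither AP-1, half-site nor CTCF letters were found in 53.2% of members, against 40.6% of kept and 52.7% of lost peaks.

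Among all 7-letter words found in at least 1% of members, ATAAATC had the highest ratio of members to kept distal peaks. It was in 721 members (5.64%, interval 5.24 to 6.05), 3.24% of kept and 3.33% of lost peaks, a ratio of 1.74 to the kept peaks. The neighbouring windows held it in 3.73% around members, so the excess over local sequence was 1.51-fold, against 0.949-fold for the kept peaks. Several of the words that followed were GC-rich (GCGGAGC and GAGCCGC, then CGCCGCC and AGGGCGC, the last part of the wider CTCF site), and others were AT-rich (ATCAATA and TAATTAA, then CCATTAA and CTTATAA). The words TAATTAA and ATCAATA were below their neighbouring windows in members (0.610-fold and 0.577-fold) and further below in kept peaks.

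ATAAATC belongs with the words that posterior HOX proteins bind in vitro, and more of these were counted after its value was seen. CATAAATC was in 248 members (1.94%, interval 1.71 to 2.19), 0.862% of kept and 0.866% of lost peaks, with 0.629% in the members' neighbouring windows (3.08-fold). CATAAATC holds ATAAATC, as does TGATTTAT on the other strand (1.52-fold in members), so neither is separate support. CCATAAA was in 6.32%, 4.46% and 3.87%. In members CCAATAA was 1.4-fold above the neighbouring windows. TAATTA was below them in members (0.67-fold) and further below in kept (0.544-fold) and lost peaks (0.497-fold). CTCGTAAA was rare, in 62 members (0.485%), 0.333% of kept and 0.228% of lost peaks, and stood 5.90-fold, 2.9-fold and 3.42-fold above the neighbouring windows of each set. ATAAATC or CCATAAA or CCAATAA or CTCGTAAA was in 14.4% of members (interval 13.8 to 15.0), 9.88% of kept and 9.17% of lost peaks. In the first 30% of the lists the shares were 19.0% (interval 16.4 to 21.9), 9.79% and 8.61%. This set of words includes ATAAATC, which was picked for its ratio to the kept peaks. CCATAAA, and TCGTAAA, which CTCGTAAA holds, were among the words with the highest ratios of members to lost peaks (1.63 and 1.84). The pooled shares are therefore no separate support. A match is a description of letters and not evidence of a bound factor.

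By position, 48.7% of members were intergenic, 48.4% intronic and 2.95% in exons of protein-coding transcripts, beside 46.4%, 51.0% and 2.63% of kept distal peaks. The nearest protein-coding TSS was a median 50.8 kb away (quartiles 15.5 and 162 kb), against 43.0 kb for kept and 42.3 kb for lost peaks, and 35.0% of members were more than 100 kb from any, against 29.5% of kept peaks. Median GC was 42.8% in members and 43.8% in kept peaks, and 41.0% and 42.0% in their neighbouring windows. Members were on every chromosome except Y, which had no distal peak in any of the 3 sets. They made up from 26.5% of the distal K/D peaks on chromosome 20 (interval 23.8 to 29.4) to 38.5% on chromosome X (interval 35.7 to 41.3).

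Members were mostly scattered singly, yet some filled long stretches alone. Chained by gaps of at most 10 kb, 10655 members stood by themselves, 1762 in pairs, and the largest group had 6. That group spanned 16.8 kb on chromosome X (106913554 to 106930355) between PRPS1, a nucleotide synthesis gene, and TSC22D3, a glucocorticoid-induced gene, and no WT DAXX peak lay in it. The groups of 5 were on chromosome 2 (76496130 to 76510623), 558 kb from GCFC2, with no WT DAXX peak and 3 AP-1 members, and in an intron of GMDS on chromosome 6 (1822103 to 1841297), 212 kb from FOXC1, a forkhead gene. The next named groups held 4 members in SPTB on chromosome 14 and 4 in GRHL2, an epithelial transcription factor gene, on chromosome 8.

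On a larger scale, K/D-only peaks formed blocks. A block was taken as a run of at least 8 K/D DAXX peaks, none overlapping a WT peak, with no WT DAXX peak between the first and the last, a definition set after the data were seen. There were 61 such blocks on 17 chromosomes, with 705 DAXX peaks, 700 of them members (5.47% of all members). They covered 72.0 Mb, with a median length of 1103 kb and a longest of 3.46 Mb. That WT DAXX is absent there follows from the definition, whereas H3(Lys4) and DNMT1 were not used in it. Within the blocks the H3(Lys4) lists held 58 WT and 1195 K/D regions, a ratio of 20.6, although the lists are of nearly equal size over the genome (72064 and 72181 regions). That is 0.806 WT and 16.6 K/D regions per Mb, against 23.3 per Mb in both lists over all chromosomes.

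Each of the 61 blocks had more K/D than WT regions. In 27 blocks the WT list had none, in 45 it had 1 or none, and the most in any block was 4, while the K/D list had between 1 and 57. Neither DNMT1 list had a peak in their 72.0 Mb, and both lists are short over all chromosomes (2234 WT and 595 K/D peaks). For the 700 members in blocks the interval of either share was 0 to 0.526%. WT DNMT1 peaks touched 0.505% and K/D DNMT1 peaks 0.347% of members outside blocks. Runs of at least 5 peaks, a looser definition, held 6 WT and 1 K/D DNMT1 peaks. In the 500 kb to either side of the blocks were 761 DAXX peaks of the WT list and 649 of the K/D list. A block ends where a WT DAXX peak lies, so WT DAXX peaks beside it follow largely from the definition. H3(Lys4) regions in these flanks numbered 900 in WT and 1327 in K/D cells. The blocks were gene-poor, with 1.06 protein-coding genes starting per Mb against 6.39 over the genome, and 21 had no gene start. Their median GC was 37.6%. The WT lists of DAXX and H3(Lys4) share 1 input library, as do the K/D lists. These inputs entered the calls only, and their depth in the blocks was not analysed here, so whether WT reads covered these stretches as they did elsewhere was not tested.

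The mirror runs were shorter and held regions of both lines. Runs of at least 8 WT-only DAXX peaks without a K/D peak numbered 64, with 568 peaks in 16.9 Mb, a median length of 199.8 kb and 7.97 gene starts per Mb. They held 503 WT and 432 K/D H3(Lys4) regions, and the K/D list was the longer in 15 of them and the shorter in 37. K/D regions stood there at 25.5 per Mb, above the 23.3 per Mb of the genome, whereas WT regions in the K/D-only blocks stood at 0.806 per Mb. These WT-only runs also held 18 WT and 3 K/D DNMT1 peaks, whereas the longer K/D-only blocks held none.

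**Figure D3:**
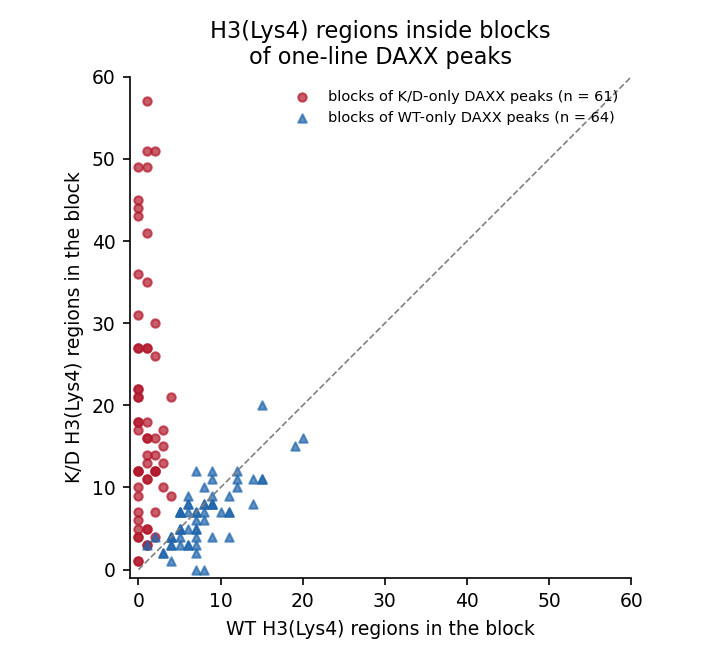
Number of WT (x axis) and K/D (y axis) H3(Lys4) regions inside each of 61 blocks of K/D-only DAXX peaks (circles) and 64 blocks of WT-only DAXX peaks (triangles); the dashed line marks equal numbers. All circles lie above the line, at 0 to 4 WT regions, and the triangles lie on both sides of it.

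The block with the most peaks covered 1.05 Mb of chromosome 3 (116498428 to 117551943) at LSAMP, which encodes a neuronal surface adhesion protein. It held 25 members and 2 WT against 51 K/D H3(Lys4) regions. In the 500 kb before it the lists had 2 WT and 3 K/D DAXX peaks, and in the 500 kb after it 2 and 7. H3(Lys4) regions numbered 2 WT and 8 K/D before the block and 2 WT and 12 K/D after it.

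**Figure D4:**
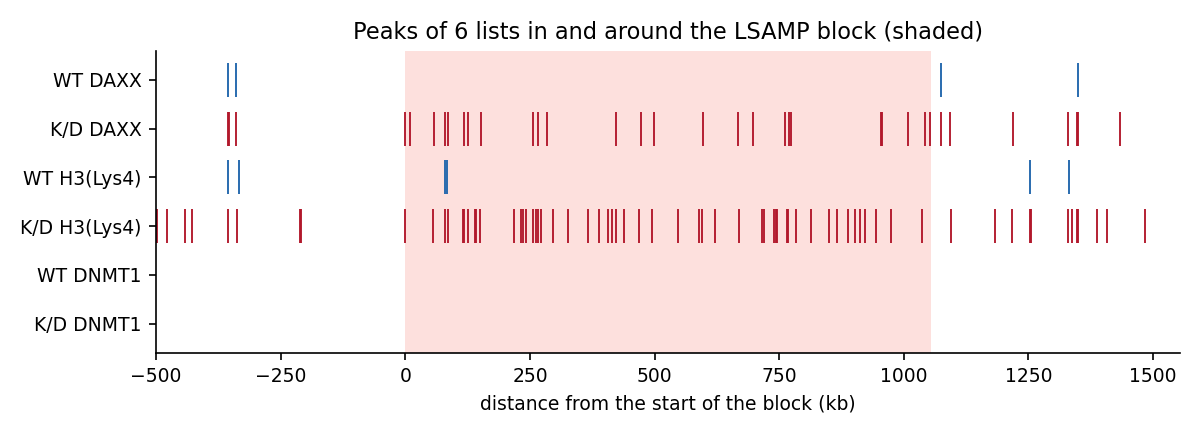
Peak centres of the 6 lists (rows, 1 tick per peak or region) in the LSAMP block (shaded) and 500 kb to either side; the x axis is the distance in kb from the start of the block. The shaded stretch has 25 K/D and 0 WT DAXX peaks, 51 K/D and 2 WT H3(Lys4) regions and no DNMT1 peak.

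The next blocks in number of peaks were similar in their marks. On chromosome 17 a block of 22 members covered CA10, which encodes a carbonic anhydrase-related protein without enzyme activity, with 0 WT and 44 K/D H3(Lys4) regions. Another 22 members covered LRRTM4, a synaptic adhesion gene on chromosome 2, with 1 WT and 51 K/D regions. The block at DMD, the dystrophin gene on chromosome X, had 20 members and 1 WT against 57 K/D regions. In 7 of the 61 blocks the K/D list had 4 regions or fewer. The AUTS2 block on chromosome 7 had 15 members but 1 WT and 3 K/D regions, and that at WWOX and MAF on chromosome 16 had 11 DAXX peaks with 1 and 3. These blocks were named by their number of peaks after their values were seen.

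Members inside blocks differed in sequence and mark from those outside. Blocks are defined by the absence of WT DAXX, and the median gap to a WT DAXX peak was 345 kb inside and 9.78 kb outside. Like the split by distance above, this one describes the members and is no separate support. On a WT H3(Lys4) region lay 5 of 700 (0.714%, interval 0.232 to 1.66), against 20.6% of the 12088 members outside, and on a K/D region 22.1% (interval 19.1 to 25.4) against 28.7%. AP-1 letters were in 34.0% (interval 30.5 to 37.6) against 26.7%, and half-sites in 31.1% (interval 27.7 to 34.7) against 21.9%. CTCF letters were in 8 members inside blocks (1.14%) and in 2.77% outside. Members inside blocks stood higher in the list, with 28.9% against 19.9% in its first 50%, and these shares were not weighted to place. Median GC was 40.8% inside and 42.8% outside, and 37.8% and 41.3% in the neighbouring windows. Without the block members, the share on K/D regions was thus 28.7% and on WT regions 20.6%, still apart in the same direction.

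Members inside genes were counted without scaling to gene length. ZFPM2, which encodes the GATA cofactor FOG2 (1214 kb, chromosome 8), held 26 members, 9 kept and 3 lost distal peaks, with 8 WT and 71 K/D H3(Lys4) regions. CTNNA2, the neuronal alpha-catenin gene (1464 kb), held 21 members against 2 kept and 1 lost peak, with 1 WT and 26 K/D regions. FHIT, at a fragile site (1504 kb), held 17, 9 and 4, with 4 WT and 34 K/D regions. These genes were named for their number of members, so an excess of K/D DAXX peaks in them follows largely from that choice. H3(Lys4) was not used in it, and the regions in ZFPM2, CTNNA2 and FHIT were mainly those of K/D cells. ZFPM2 and CTNNA2 overlap blocks described above, as does LRRC4C below, so part of their regions was counted there too.

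NKAIN2, a gene of a sodium pump partner (1022 kb), held 15 members and no WT DAXX peak, with 0 WT and 20 K/D H3(Lys4) regions. AUTS2, a neurodevelopmental gene (1195 kb), held 14 members and no WT DAXX peak, with 0 and 3 regions. LRRC4C, the netrin-G ligand gene (1346 kb), held 14 members, 1 kept and 0 lost peaks, with 1 and 47 regions. Other genes of this group had many WT peaks. RUNX1, a core-binding factor gene, held 14 members beside 39 kept and 23 lost peaks, with 45 WT and 69 K/D regions, and FOXP1, a forkhead repressor gene, 17 members beside 29 kept and 15 lost, with 31 and 56 regions. The unnamed gene ENSG00000285708 overlaps FOXP1 and shares its 17 members. PCDH9 held 15, ROBO2, an axon guidance receptor gene, 15, and CTNNA3 and MACROD2 14 each, all with both kept and lost peaks. WT and K/D H3(Lys4) regions numbered 28 and 57 in PCDH9 and 63 and 63 in ROBO2. They numbered 33 and 48 in CTNNA3 and 55 and 66 in MACROD2. ROBO2, CTNNA3 and MACROD2 had more WT than K/D DAXX peaks.

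**Figure D5:**
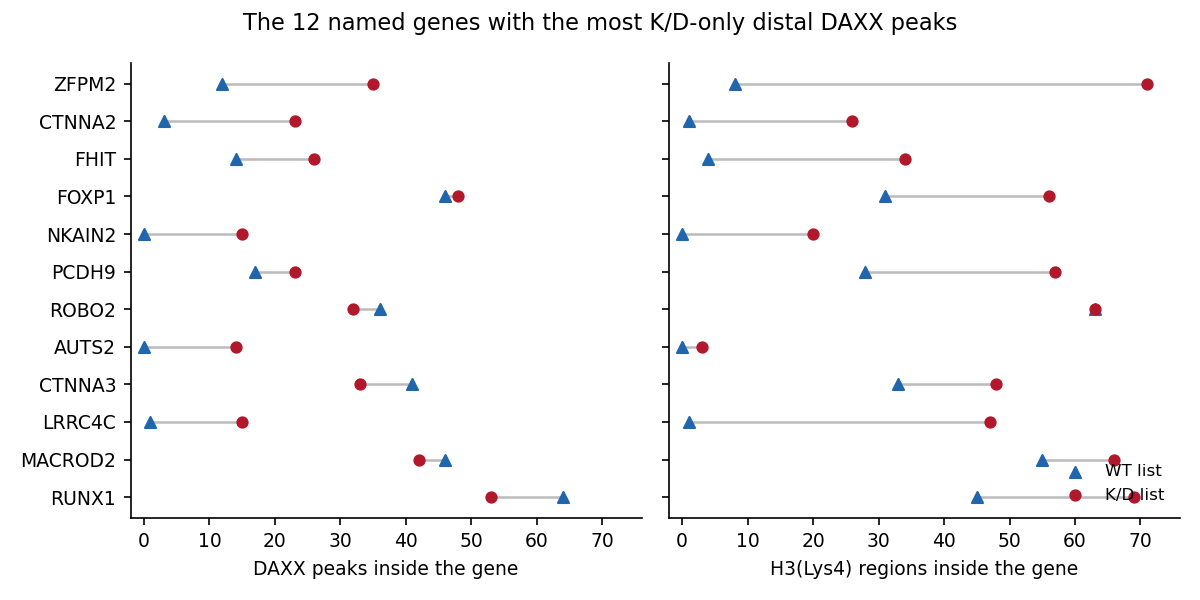
Number of DAXX peaks (left) and H3(Lys4) regions (right) of the WT list (triangles) and the K/D list (circles) inside the 12 named genes with the most K/D-only distal DAXX peaks, ordered by that number. NKAIN2 and AUTS2 have 0 WT DAXX peaks and 0 WT regions, while RUNX1 has 64 WT and 53 K/D DAXX peaks.

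With at least 5 members and no WT DAXX peak at all there were 13 genes, among them DMD, DPP10, LRRTM4, CA10 and PTPRG. All 13 had more K/D than WT H3(Lys4) regions, 166 against 2 in all, and 11 had no WT region. In the opposite class, with at least 5 lost peaks and no K/D DAXX peak, were 12 genes, holding 52 WT and 55 K/D regions. Both classes were formed after the data were seen and rest on absence from 1 list. DMD, DPP10, LRRTM4, CA10, PTPRG, NKAIN2 and AUTS2 overlap the blocks described above. The counts in these genes therefore largely repeat those of the blocks and are no separate support.

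In 5 Mb bins with at least 50 distal DAXX peaks (525 bins), members made up a median 30% of the distal peaks called in 1 line only, meaning members plus lost peaks. The range was 9.86% to 80.4%. Among the 3 highest bins were chromosome 2 at 75 to 80 Mb with 41 members and 10 lost peaks (80.4%) and chromosome 8 at 105 to 110 Mb with 64 and 23 (73.6%). The H3(Lys4) regions called in 1 line only were 83.1% and 78.1% K/D in these bins, against a median of 47.9%. The chromosome 2 bin holds the LRRTM4 block and the chromosome 8 bin blocks at ZFPM2, so these values are not separate from the blocks. The lowest bins were chromosome 6 at 105 to 110 Mb (9.86%), chromosome 19 at 15 to 20 Mb (10.1%) and chromosome 9 at 120 to 125 Mb (10.3%), where the H3(Lys4) share was 39.4%, 41.0% and 38.2%.

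Genes near members were compared with 12 gene lists, beside the 19.5% of all 19785 protein-coding genes that had a member inside and the 12.1% with one within 10 kb of a TSS. Since members were chosen on the DAXX lists, these counts describe where they lie and carry no test. The neuronal adhesion and axon guidance list had the highest shares, with a member inside 28 of 32 genes (87.5%) and within 10 kb of a TSS of 14 (43.8%). These genes have a median length of 518 kb, against 27.0 kb for all, and held 6.49 members per Mb of gene against 5.05. By this density 8 of the other 11 lists stood higher, up to 17.6 per Mb for the FOS, JUN and ATF genes and 15.6 for the NF-kB list. Of the distal K/D peaks inside the neuronal genes 41.4% were members, against 31.2% inside all genes. That share was 50% in the NF-kB list (7 members, 7 kept peaks) and 42.9% in the FOS, JUN and ATF list (6 and 8). The genes named for each list are those with the earliest members in the deposited order, whether inside the gene or within 10 kb of its TSS. The first neuronal ones were in introns of NRP1, PCDH9 and SEMA3C, a secreted semaphorin gene, where the member was 15 bp from a WT peak.

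Core autophagy genes, which the study followed, had a member inside 10 of 44 (22.7%) and within 10 kb of a TSS of 3 (6.82%), and members were 21.0% of the distal K/D peaks inside them. The first lay in introns of RPTOR, an mTORC1 subunit gene, ATG10, a conjugation enzyme gene, and PIK3C3, the gene of the autophagy lipid kinase. None of these 3 lay on a K/D H3(Lys4) region. Inside androgen-regulated and luminal prostate genes members were 13.2% of the distal K/D peaks (5 members, 33 kept peaks), the lowest share of the 12 lists. There 4 of 21 genes (19.0%) had a member inside and 4 had one within 10 kb of a TSS. The first lay 3.05 kb upstream of PMEPA1, 6.90 kb upstream of SLC45A3 and in an intron of TRPM8. Of the FOS, JUN and ATF genes 6 of 17 (35.3%) had one within 10 kb of a TSS, the first at ATF3, FOSL1 and MAFK, 1.93 kb, 0.852 kb and 6.56 kb downstream of a TSS.

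In the NF-kB list 6 of 24 genes (25%) had a member within 10 kb of a TSS. CXCL1, a chemokine gene, had it 6.88 kb upstream, IL6 in an exon and BIRC2, an inhibitor of apoptosis gene, 1.18 kb upstream. The IL6 member lay on a K/D-only H3(Lys4) region, and the other 2 on WT-only regions. Among integrin and laminin genes 7 of 22 (31.8%) had one that close, and the first members of that list lay 2.87 kb from LAMA5, 8.40 kb from ITGA3 and in an intron of LAMA1, 157 kb from its TSS. ETS factor genes had 3 of 18 (16.7%) within 10 kb and 8 (44.4%) with a member inside. The first lay in introns of ERG, EHF and ETV1, 9.94, 13.0 and 36.8 kb from a TSS. RUNX, TEAD and YAP genes had 6 of 19 (31.6%) within 10 kb. The first lay in introns of RUNX1, 66.1 kb from a TSS, VGLL4, 9.27 kb, and RUNX2, 5.6 kb. Of the epithelial-mesenchymal transition genes 6 of 26 (23.1%) had one within 10 kb, and the first lay in introns of ZEB2, OCLN and GRHL2, 17.9, 4.30 and 115 kb from a TSS.

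Of the DAXX, ATRX, H3.3 and PML body genes 4 of 21 (19.0%) had a member within 10 kb of a TSS, with HIPK2, a kinase gene, SP100 and MORC3 first, all in introns. CTCF, cohesin and loading factor genes had 3 of 17 (17.6%) within 10 kb. The first members of that list lay 4.83 kb upstream of CTCFL and in introns of HDAC8 and STAG2, 178 and 445 kb from a TSS. Interferon response genes had 3 of 30 (10.0%) within 10 kb, and the first lay in introns of OASL, MX2 and IRF2, 4.89, 26.2 and 33.5 kb from a TSS.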

How the data were processed

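ChIP-Seq peak lists of 6 libraries from PC3 and DAXX K/D PC3 cells were used. Per the labels and the study's methods, the authors used CASAVA 1.8.2 for base calls, Bowtie2 2.1.0 for alignment to hg19 (reads with 1 location only) and HOMER 4.6 for peaks. Per the file headers, each list was called against the input of its own line with a 4.0-fold excess over input, and tags of an old and a new run were joined. The deposited positions (start and end) were used, with starts shifted to count from 1. The score column of the deposited lists is constant and was not used.

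Only chromosomes 1 to 22, X and Y entered. TSS, genes and exons came from GENCODE release 44 mapped to GRCh37 (63781 basic protein-coding transcript starts), and exons are those of basic protein-coding transcripts. Sharing meant at least 1 bp. Motifs (17) and 7-letter words were counted in windows of 100 bp to either side of the centre, with Python 3.11.15, pandas 2.3.3, SciPy 1.17.1 and pysam 0.24.0. The overlap and motif code was checked on simulated data. With 1 library per group no test was possible, and shares carry exact (Clopper-Pearson) 95% intervals.

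Members, gene lists and motifs were chosen with earlier results of these data known. All 291 list symbols matched, 1 by an older name. Named were the first 10 members, the genes with the most members (ties included), up to 3 genes per list, the first 3 members on a K/D-only H3(Lys4) region, with K/D DNMT1 and with CTCF letters, the 5 densest groups and the extreme bins. Some items that this rule names are not reported here. Blocks and the HOX words were added after seeing the data. Alternatives are listed in the closing section. The plan to give the share of masked repeats was dropped because the genome used marks none.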

Additional observations from a re-analysis of the deposited data

How the results depend on the processing

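K/D-only is the absence of a call in 1 WT library, and a missing WT peak may have failed a limit of the caller. Members sit late in the list, where calls are least secure if its order follows strength. No paired analysis was possible because each group has 1 library. The number of members, 12788, ranged from 9741 to 13499 under the other rules for distal and shared, and was 2613 in the first 50% of the list. The share on K/D H3(Lys4) regions, 28.3%, was 26.8% with no WT DAXX peak within 1000 bp, 26.7% when over 5000 bp from every TSS, 23.4% in the first 50% of the list, 24.7% with 50% of the peak inside the region and 39.1% with the centre within 500 bp of it. The share on WT regions, 19.5%, was 16.6%, 16.9%, 17.5%, 15.0% and 30.5% under the same 5, 20.4% with centres over 100 bp from WT centres and 20.6% without block members, an alternative chosen after seeing the data. AP-1, 27.1%, was 28.2% over 5000 bp from every TSS, 28.9% in the first 50% and 19.6% within 50 bp of the centre. CTCF, 2.68%, was 1.58% within 50 bp. The half-site, 22.4%, was 23.1% with no WT peak within 1000 bp, 25.6% in the first 50% and 16.5% within 50 bp. The K/D to WT ratio of H3(Lys4) regions in blocks, 20.6, was 7.64 for runs of at least 5 peaks and 29.8 for at least 10, both added after seeing the data. The K/D share exceeded the WT share in every setting run. Leaving out chromosome 10 gave 12164 members and moved none of the 5 shares beyond its interval. It was not run for the blocks.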

Other observations

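Some members lay in CpG-rich sequence. At least 10 CpG were counted in 581 member windows (4.54%, interval 4.19 to 4.92), against 2.79% of kept and 4.04% of lost distal peaks. Of these 581, 45.1% lay within 1000 bp of a TSS of any gene type, protein-coding ones included. AP-1 letters were in 5.16% of them and CTCF letters in 8.26% (interval 6.15 to 10.8), and in 17.6% and 5.31% of the 754 CpG-rich kept peaks. H3(Lys4) regions of both lines touched 22% of the CpG-rich members, K/D-only regions 19.4% (interval 16.3 to 22.9) and WT-only regions 21.3% (interval 18.1 to 24.9), the last 2 within each other's intervals.

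The WT-only block with the most peaks, 16 peaks in 1.02 Mb on chromosome 20 at CST2, CST5, GGTLC1 and SYNDIG1, was the reverse of the K/D-only blocks, with 8 WT and 0 K/D H3(Lys4) regions. Of the 64 WT-only blocks, 2 had no K/D region.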
